A study of Mus musculus with 71 samples.

Results

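The data describe 10 mouse genes that bring glucose into the brain, break it down, exchange lactate and store glycogen: Slc2a1, Slc2a3, Slc16a1, Ldha, Ldhb, Pfkfb3, Ppp1r3c, Gys1, Pygb and Pygm. They were read on all probe sets that the array's annotation assigns to one of these symbols alone, 22 of the 45037 probe sets tested and 10 of the 18193 gene symbols measured. Slc2a3 and Ldhb had 4 probe sets each, Slc2a1 had 3, Slc16a1, Pfkfb3, Ppp1r3c and Gys1 had 2 each, and Ldha, Pygb and Pygm had 1 each. The series measured whole-brain RNA of male mice aged 12 to 13 weeks on one-colour Affymetrix expression arrays, in 3 inbred strains, which were AKR/J, DBA/2J and C57BL/6J. Mice were kept awake for 6 h up to sacrifice or stayed undisturbed in their home cage, and both were killed at ZT0, ZT6, ZT12 or ZT18, where ZT counts the hours from light onset and dark began at ZT12. The labels name no transgene or drug in any group. Each array held equal amounts of RNA from 3 mice of 1 group, and with 9 mice per group the arrays of a group were pools of different animals, so that the error behind each p-value is that between pools. The 24 groups had 3 arrays each, except for sleep-deprived AKR/J mice at ZT18 with 2, which gave 36 control and 35 sleep-deprived arrays.

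Neurons and glia run mainly on glucose, which crosses the blood-brain barrier and the astrocyte membrane through GLUT1 (Slc2a1) and enters neurons through GLUT3 (Slc2a3). Astrocytes can turn glucose into lactate and keep the brain's glycogen, and monocarboxylate transporters pass lactate between cells, an exchange that is often studied in connection with wakefulness. Glycogen is built by glycogen synthase and taken apart by glycogen phosphorylase, and the subunit PTG (Ppp1r3c) brings protein phosphatase 1 to glycogen, where it switches synthase on and phosphorylase off.

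Promoters of genes that responded to sleep deprivation are shown first, those of Slc2a1, Pfkfb3, Ppp1r3c and Ldha, which rose, and of Slc16a1, which fell. RefSeq windows of 300 bases, from 250 before to 50 after an annotated start, were found for 9 of the 10 genes on build GRCm38.p6. Capitals mark matches on either strand to ACGTG (the core of the hypoxia response element), CACGTG (the E-box, which holds ACGTG) or TGACG (the core of the cyclic AMP response element); AGAACA, one arm of the glucocorticoid response element, was also searched. The window listed first for each of 5 genes is printed 5′ to 3′ on the gene's own strand.
Slc2a1, chr4:119108495-119108794 (plus strand): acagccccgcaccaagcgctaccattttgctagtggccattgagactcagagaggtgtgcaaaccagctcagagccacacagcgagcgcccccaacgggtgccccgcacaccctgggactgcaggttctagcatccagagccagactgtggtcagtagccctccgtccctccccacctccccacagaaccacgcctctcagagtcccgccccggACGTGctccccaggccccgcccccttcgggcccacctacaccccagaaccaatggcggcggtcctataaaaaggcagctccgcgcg
Slc16a1, chr3:104638414-104638713 (plus strand): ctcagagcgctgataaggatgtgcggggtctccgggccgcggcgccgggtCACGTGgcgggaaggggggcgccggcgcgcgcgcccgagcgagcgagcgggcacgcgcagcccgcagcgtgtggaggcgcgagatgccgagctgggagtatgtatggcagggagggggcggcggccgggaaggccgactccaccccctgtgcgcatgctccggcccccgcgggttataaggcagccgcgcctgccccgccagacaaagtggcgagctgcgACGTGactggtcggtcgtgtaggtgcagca
Ldha, chr7:46845554-46845853 (plus strand): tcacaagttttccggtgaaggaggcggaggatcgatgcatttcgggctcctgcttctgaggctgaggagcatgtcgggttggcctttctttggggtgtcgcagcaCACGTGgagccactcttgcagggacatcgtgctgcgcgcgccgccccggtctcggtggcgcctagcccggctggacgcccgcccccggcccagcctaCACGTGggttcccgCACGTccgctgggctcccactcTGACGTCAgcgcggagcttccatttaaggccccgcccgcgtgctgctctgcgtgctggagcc
Pfkfb3, chr2:11553880-11554179 (minus strand): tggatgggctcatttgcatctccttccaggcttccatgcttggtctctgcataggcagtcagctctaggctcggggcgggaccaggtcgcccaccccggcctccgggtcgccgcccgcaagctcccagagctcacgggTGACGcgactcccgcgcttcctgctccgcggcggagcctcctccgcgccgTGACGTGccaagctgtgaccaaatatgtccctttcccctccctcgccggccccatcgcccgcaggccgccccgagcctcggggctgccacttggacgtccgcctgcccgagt
Ppp1r3c, chr19:36736555-36736854 (minus strand): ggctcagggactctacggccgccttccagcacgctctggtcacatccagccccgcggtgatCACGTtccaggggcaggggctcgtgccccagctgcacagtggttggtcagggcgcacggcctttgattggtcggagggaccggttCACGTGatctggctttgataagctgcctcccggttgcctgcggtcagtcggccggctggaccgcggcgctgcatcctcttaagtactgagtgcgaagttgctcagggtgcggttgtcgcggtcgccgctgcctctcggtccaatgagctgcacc

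In these 5 windows ACGTG was read once in Slc2a1, at position -36 from the start, and once in Pfkfb3, at position -60. Ppp1r3c and Slc16a1 held it 3 times each and Ldha 5 times, counting both strands, so that each E-box counts as 2 of these matches. The E-box itself stood at position -104 in Ppp1r3c, at -200 in Slc16a1, and at -145 and -48 in Ldha. Over the 11 windows of the 9 genes, ACGTG was found in 8, CACGTG in 4, TGACG in 5 and AGAACA in 0. The windows with ACGTG include those of Pygb (-163) and Pygm (-61), which had no call for sleep deprivation over all groups. Those of Ldhb and Gys1, also without such a call, did not hold it. Of all 32851 windows in the table, 19.6% held ACGTG, 7.15% CACGTG, 20.8% TGACG and 19% AGAACA. A match is a string of letters and not a binding site, and the array data do not measure any factor's binding there.

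Values are log2 signal, so a difference of 0.1 is a change of about 1.07-fold, as for Ldha below. Array medians lay between 5.65 and 5.71, and no pair of arrays had a correlation under 0.986. Homer1, whose activity-induced transcript marks sleep loss, was read on 1436387_at, its probe set with the largest sleep deprivation difference. Control arrays there ran from 6.9 to 9.85 and sleep-deprived arrays from 9.58 to 10.54, medians 8.5 and 10.09. Because the probe set was picked for this difference, these values are a description and not an independent check of the labels. On the 64 control probe sets of the array, 6 arrays stood apart from the other 65: AKR/J control replicate 3 at ZT0 and at ZT6, C57BL/6J control replicate 3 at ZT0, sleep-deprived C57BL/6J replicate 3 at ZT0, and sleep-deprived C57BL/6J replicates 1 and 3 at ZT6. They were 3 control and 3 sleep-deprived arrays, and calls that ended without them are given both ways.

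Sleep deprivation raised the RNA of the glucose transporter Slc2a1, the glycolytic activator Pfkfb3, the glycogen-targeting subunit Ppp1r3c and lactate dehydrogenase Ldha, and lowered that of the lactate transporter Slc16a1. In limma, with the 12 differences of the strains and times averaged, 9 of the 22 probe sets were higher and 1 was lower at an adjusted p under 0.05, the threshold for a call throughout. Over all probe sets 8.31% were called higher and 9.00% lower. The largest rise was that of Pfkfb3, 0.30 log2 units or 1.23-fold, and the fall of Slc16a1 was 0.12. Glycogen synthase (Gys1), the glycogen phosphorylases (Pygb, Pygm) and Ldhb had no call on any of their 8 probe sets. The median difference of the 22 probe sets was 0.03, against -0.002 over all probe sets. The 6 arrays that stood apart changed 1 of these calls: without them 8 probe sets were called higher and 1 lower.

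**Figure D1:**
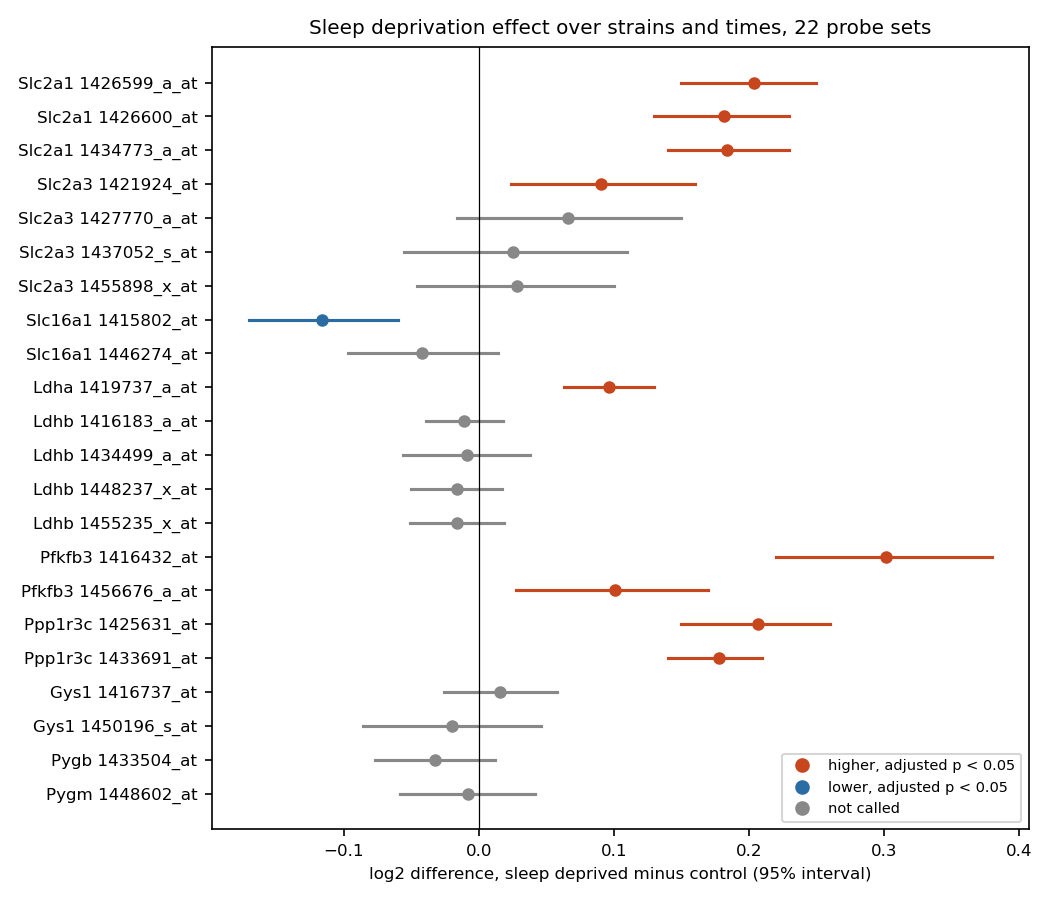
Difference in log2 signal between sleep-deprived and control arrays over strains and times for each of the 22 probe sets, with its 95% interval; orange is called higher, blue called lower and grey not called. All 3 Slc2a1 probe sets lie near 0.2 with both Ppp1r3c probe sets, Pfkfb3 1416432_at lies at 0.30, and the Ldhb, Gys1, Pygb and Pygm intervals all include 0.

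Among the transporters, Slc2a1 rose on each of its 3 probe sets. On 1434773_a_at control arrays ran from 9.7 to 10.39 with a median of 10.01, and sleep-deprived arrays from 9.93 to 10.68 with a median of 10.15. The ranges overlap, but 32 of 35 sleep-deprived arrays were above the mean of their own control group. For such counts of arrays the share over all probe sets was not computed. The difference was 0.18 (SE 0.022, adjusted p = 1.98e-09, limma), or 1.14-fold. On 1426599_a_at it was 0.20 (SE 0.025, adjusted p = 5.23e-09) and on 1426600_at 0.18 (SE 0.026, adjusted p = 1.43e-07).

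Slc2a3, the neuronal glucose transporter, was called on 1 of 4 probe sets, and only just. On 1421924_at control arrays ran from 6.39 to 7.15 (median 6.88) and sleep-deprived arrays from 6.66 to 7.27 (median 6.97), a difference of 0.090 (SE 0.033, adjusted p = 0.0476, limma). The call ended when any of 43 single arrays was left out, at most at an adjusted p of 0.0812 without AKR/J control replicate 1 at ZT0, and when the 4 probe sets were averaged (0.053, adjusted p = 0.118). The other 3 had differences of 0.066 (1427770_a_at, 95% interval -0.016 to 0.15), 0.026 (1437052_s_at, -0.055 to 0.11) and 0.029 (1455898_x_at, -0.046 to 0.10). In AKR/J at ZT0, 1421924_at read 6.39, 6.86 and 6.86 in controls and 6.96, 7.11 and 7.13 after sleep deprivation, all above the controls. In C57BL/6J at ZT6 it read 7.05, 6.9 and 7.07 in controls and 6.69, 6.85 and 6.78 after sleep deprivation, all below them, where the first and the last sleep-deprived arrays are among the 6 that stood apart. These differences, 0.37 and -0.23, were not called, and on 1437052_s_at the same groups gave -0.13 and 0.15, also without a call. Those opposite signs rest on arrays that stood apart, which include AKR/J control replicate 3 at ZT0. In AKR/J at ZT0 that array read 11.07, the other controls 10.53 and 10.39, and the sleep-deprived arrays 10.53, 10.54 and 10.54. In C57BL/6J at ZT6 the controls read 10.6, 10.82 and 10.62. The sleep-deprived arrays there read 11.05, 10.48 and 10.97, the first and last being such arrays. The 4 probe sets of Slc2a3 also differ in their calls. Names ending in _s_at or _x_at mark probe sets that can match several transcripts.

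Slc16a1 encodes MCT1, the monocarboxylate transporter of endothelium, astrocytes and oligodendrocytes, and it fell. On 1415802_at control arrays ran from 8.59 to 9.32 (median 8.93) and sleep-deprived arrays from 8.27 to 9.27 (median 8.78). The sleep-deprived group had the lower mean in 11 of the 12 strain and time comparisons, although only in 3 did all its arrays lie below all control arrays. Over all probe sets the latter held in 8.47% of such comparisons. In DBA/2J at ZT6 the controls read 9, 8.98 and 9.04 and the sleep-deprived arrays 8.92, 8.62 and 8.63, without overlap, a difference of -0.28 with no call in that group alone (adjusted p = 0.0949, limma). Over all groups the difference was -0.12 (SE 0.028, adjusted p = 0.00149, limma), or 0.923-fold. The other probe set, 1446274_at, read no higher than 4.2 on any array and differed by -0.042 (95% interval -0.097 to 0.014), with no call. In whole-brain RNA, fewer cells of a type and less RNA per cell cannot be told apart.

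In glycolysis and lactate formation, Pfkfb3 and Ldha rose and Ldhb did not pass the test. Pfkfb3 makes fructose 2,6-bisphosphate, the activator of phosphofructokinase. On 1416432_at its control arrays ran from 5.45 to 6.26 (median 5.94) and its sleep-deprived arrays from 5.95 to 6.71 (median 6.2). Of the 35 sleep-deprived arrays 33 exceeded their own control mean, and the difference was 0.30 (SE 0.039, adjusted p = 1.28e-08, limma). On 1456676_a_at the values were lower, 4.97 to 5.78 in controls and 5.09 to 5.8 after sleep deprivation, and the difference was 0.10 (SE 0.036, adjusted p = 0.0436). This second call ended without any of 38 single arrays, with an adjusted p of up to 0.104 without sleep-deprived AKR/J replicate 1 at ZT18, and without the 6 arrays that stood apart (adjusted p = 0.0508). The mean of both probe sets rose by 0.20 (adjusted p = 3.03e-08), less than 1416432_at alone.

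Ldha encodes the lactate dehydrogenase subunit that favours lactate formation. Its 1 probe set, 1419737_a_at, gave 10.32 to 10.69 in controls (median 10.53) and 10.5 to 10.74 after sleep deprivation (median 10.62). In DBA/2J at ZT6 the controls read 10.48, 10.51 and 10.45 and the sleep-deprived arrays 10.69, 10.64 and 10.65, without overlap, a difference of 0.18 with no call in that group alone (adjusted p = 0.0722, limma). Over all arrays the ranges overlap, and 33 of 35 sleep-deprived arrays were above their own control mean. The rise over all groups was small in size but large against its SE, 0.10 (SE 0.017, adjusted p = 1.09e-05, limma), or 1.07-fold. Ldhb encodes the subunit that favours the use of lactate, and its 4 probe sets differed by -0.0164 to -0.00885. Their 95% intervals together span -0.056 to 0.038, and the probe set with the narrowest one, 1416183_a_at, had medians of 11.7 in both conditions.

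Of the 4 glycogen genes among the members, only Ppp1r3c rose. On 1433691_at control arrays ran from 9.7 to 10.15 (median 9.97) and sleep-deprived arrays from 9.8 to 10.35 (median 10.12). All 35 sleep-deprived arrays were above the mean of their own control group, and in 10 of the 12 comparisons the groups did not overlap. Over all probe sets, the sleep-deprived arrays all lay above the control arrays in 8.18% of such comparisons. The difference was 0.18 (SE 0.017, adjusted p = 8.62e-13, limma), or 1.13-fold. On 1425631_at control arrays ran from 7.96 to 8.65 (median 8.34), sleep-deprived arrays from 8.27 to 8.77 (median 8.51), and the difference was 0.21 (SE 0.026, adjusted p = 6.37e-09).

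Among the members, the enzymes that Ppp1r3c's phosphatase acts on gave no call over all groups. Gys1, the glycogen synthase of brain and muscle, differed by 0.016 on 1416737_at (95% interval -0.026 to 0.058) and by -0.020 on 1450196_s_at (-0.086 to 0.046). Pygb, the brain form of glycogen phosphorylase, differed by -0.0325 (-0.077 to 0.012), and Pygm, the muscle form that astrocytes also make, by -0.0079 (-0.058 to 0.042). The 4 intervals together span -0.086 to 0.058, so that larger changes in either direction lie outside them.

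Within strains the same genes led. In AKR/J 7 of 22 probe sets were called higher (3.40% of all probe sets), in C57BL/6J 6 (3.27%) and in DBA/2J 6 (3.27%), and 1 was called lower, Slc16a1 in DBA/2J (3.63% of all). Slc2a1, Pfkfb3 and Ppp1r3c were called in all 3 strains. Pfkfb3 1416432_at rose by 0.24 (SE 0.068) in AKR/J, 0.33 (SE 0.066) in C57BL/6J and 0.34 (SE 0.066) in DBA/2J. Ppp1r3c 1433691_at rose by 0.19 (SE 0.029), 0.13 (SE 0.028) and 0.21 (SE 0.028) in the same order. The Pfkfb3 value in C57BL/6J includes sleep-deprived arrays that stood apart, at 6.68 (ZT0), 6.71 and 6.45 (ZT6), and such a control at 6.23 (ZT0). Without the 6 arrays that stood apart, its difference in C57BL/6J at ZT6 was 0.14 in place of 0.51. Slc2a1 1434773_a_at rose by 0.18 (SE 0.039) in AKR/J and 0.27 (SE 0.038) in C57BL/6J, and its difference in DBA/2J was 0.11 (SE 0.038, adjusted p = 0.063), where the other 2 Slc2a1 probe sets were called at 0.14 and 0.15.

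Ldha was called in AKR/J (0.13, SE 0.030) and DBA/2J (0.12, SE 0.029), while in C57BL/6J its difference was 0.042 (95% interval -0.016 to 0.10). Both calls ended without 22 arrays that formed a cluster on spike-in probe sets (0.12, adjusted p = 0.0635, and 0.096, adjusted p = 0.0585). Slc16a1 1415802_at differed by -0.080 in AKR/J, -0.11 in C57BL/6J and -0.16 in DBA/2J, the last with an adjusted p of 0.0332. Slc2a3 1421924_at was called in AKR/J at 0.20 (SE 0.058, adjusted p = 0.0239). These unequal calls do not show unequal effects: the F test for strain by sleep deprivation called 0 of the 22 probe sets (0.0222% of all), with 2 at an unadjusted p under 0.05 in limma. The smallest of its adjusted p-values for the 5 genes above was that of Slc2a1 1434773_a_at, 0.619, where the strain effects spanned 0.16. Calls that rest on single arrays were those of Slc2a1 in DBA/2J on 1426599_a_at (9 arrays each end it, adjusted p up to 0.0803) and on 1426600_at (2 arrays, 0.0531), Pfkfb3 in AKR/J (6 arrays, 0.0833), Slc2a3 in AKR/J (5 arrays, 0.0766), Ppp1r3c 1425631_at in C57BL/6J (13 arrays, 0.0899) and Slc16a1 in DBA/2J (10 arrays, 0.116).

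Across times of day the calls were most numerous at ZT6 and ZT12, after sleep loss in the light phase, and absent at ZT18. At ZT0 5 probe sets were called higher (1.26% of all), at ZT6 7 higher (5.13%) and 1 lower (5.29%), and at ZT12 6 higher (4.71%). At ZT18 limma called 0 in either direction (0.0777% of all), with 5 of the 22 at an unadjusted p under 0.05, the 3 of Slc2a1 and both of Ppp1r3c. The ZT18 differences were 0.14 for Slc2a1 1434773_a_at (95% interval 0.051 to 0.23), 0.12 for Ppp1r3c 1433691_at (0.048 to 0.18) and 0.097 for Pfkfb3 1416432_at (-0.064 to 0.26).

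Pfkfb3 1416432_at differed by 0.27 (SE 0.077) at ZT0, 0.43 (SE 0.077) at ZT6 and 0.41 (SE 0.077) at ZT12. Without the 6 arrays that stood apart its ZT6 difference was 0.34, still called (adjusted p = 0.000708, limma). Slc2a1 1434773_a_at differed by 0.13 (SE 0.044, not called) at ZT0, 0.22 (SE 0.044) at ZT6 and 0.25 (SE 0.044) at ZT12. Ppp1r3c 1433691_at rose by 0.15, 0.24 and 0.21 (SE 0.033 each) at the same times. Ldha was called at ZT0 (0.15) and ZT6 (0.14), where its SE was 0.033, and had 0.072 at ZT12 and 0.023 at ZT18. Slc16a1 1415802_at was called lower at ZT6 (-0.20, adjusted p = 0.0106), a call that ended without the 6 arrays that stood apart (-0.19, adjusted p = 0.0872). At ZT0 the call of Pfkfb3 1416432_at ended without any of 10 single arrays (adjusted p up to 0.13 without DBA/2J control replicate 3) and that of Ppp1r3c 1425631_at without any of 3 (0.0736 without DBA/2J control replicate 1). The ZT0 call of Slc2a3 1421924_at (0.23, SE 0.065, adjusted p = 0.0481, limma) ended without any of 41 single arrays. Its adjusted p was then up to 0.169, without AKR/J control replicate 1 at ZT0. The count at ZT0 dropped to 2 without DBA/2J control replicate 1 at ZT0. The F test for time by sleep deprivation called 0 member probe sets (1.40% of all), with 6 at an unadjusted p under 0.05 in limma, and for Pfkfb3 1416432_at its adjusted p was 0.273 with time effects that spanned 0.33. With array weights in the fit, it called 2, Pfkfb3 1416432_at and Slc2a3 1421924_at.

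Within single strains and times, 15 of the 264 comparisons of a member probe set were called higher (5.68%, against 0.887% over all probe sets) and 1 was called lower (0.379%, against 0.875%). All sleep-deprived arrays lay above all control arrays in 67 of the 264 (25.4%, against 8.18% over all probe sets) and below them in 15 (5.68%, against 8.47%). The 15 rises were those of Slc2a1, Pfkfb3 and Ppp1r3c at ZT6 or ZT12. For Slc2a1 in C57BL/6J at ZT12, 1434773_a_at read 10.17, 10.29 and 10.18 in controls and 10.62, 10.58 and 10.68 after sleep deprivation. The groups were well apart, and the difference was 0.41 (SE 0.075, adjusted p = 0.000417, limma).

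For Pfkfb3 in DBA/2J at ZT6, 1416432_at read 5.45, 5.63 and 5.88 in controls and 6.19, 6.25 and 6.2 after sleep deprivation. No array overlapped, with a difference of 0.56 (SE 0.13, adjusted p = 0.00612, limma), which lost its call without control replicate 1 (adjusted p = 0.0913). At ZT12 in the same strain the controls read 5.82, 5.63 and 5.8 and the sleep-deprived arrays 6.2, 6.3 and 6.26. The difference there was 0.51 (SE 0.13, adjusted p = 0.0192), and 3 single arrays each ended the call (adjusted p up to 0.112 without control replicate 2), as did averaging the Pfkfb3 probe sets (0.27, adjusted p = 0.0867). At ZT18 the groups overlapped, with controls of 6.26, 6.12 and 6.13 and sleep-deprived arrays of 6.24, 6.05 and 6.15.

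Ppp1r3c 1433691_at had 4 of the rises. In DBA/2J at ZT6 its controls read 9.96, 9.97 and 9.79 and its sleep-deprived arrays 10.19, 10.21 and 10.25, a difference of 0.31 (SE 0.057, adjusted p = 0.000263, limma). In AKR/J at ZT12 the controls read 9.71, 9.72 and 9.76 and the sleep-deprived arrays 10.01, 10.08 and 9.95, a difference of 0.29 (SE 0.057, adjusted p = 0.00116). Neither pair of groups overlapped. These 2 calls and those of Slc2a1 in C57BL/6J at ZT12 on its 3 probe sets held with any single array left out, although with only the arrays of the compared groups both Ppp1r3c calls ended (adjusted p = 0.0668 in DBA/2J and 0.164 in AKR/J), while each of the other calls within 1 strain and time ended without at least 1 array.

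Several calls at ZT6 ended without the 6 arrays that stood apart, some with a smaller difference and some with the difference kept and fewer arrays. Pfkfb3 1416432_at in C57BL/6J at ZT6 read 5.78, 5.98 and 5.9 in controls and 6.71, 6.03 and 6.45 after sleep deprivation. The first and the third of these sleep-deprived arrays are among the 6. Its difference of 0.51 (SE 0.13, adjusted p = 0.0108, limma) was 0.14 without the 6 arrays (adjusted p = 0.773). Pygm, the single fall, in the same C57BL/6J groups read 7.85, 7.91 and 7.83 in controls and 7.36, 7.75 and 7.48 after sleep deprivation. Its difference of -0.34 (SE 0.085, adjusted p = 0.0092) was -0.11 without the 6 arrays (adjusted p = 0.721). Slc2a1 1426599_a_at in C57BL/6J at ZT6 went from 0.27 (adjusted p = 0.045) to 0.38 (adjusted p = 0.125), so that its difference was not smaller without them, while 1426600_at went from 0.28 (adjusted p = 0.0399) to 0.19 (adjusted p = 0.543). In AKR/J at ZT6, Slc2a1 1434773_a_at went from 0.28 (adjusted p = 0.0244) to 0.29 (adjusted p = 0.0618) and Ppp1r3c 1425631_at from 0.34 (adjusted p = 0.0207) to 0.27 (adjusted p = 0.105).

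**Figure D2:**
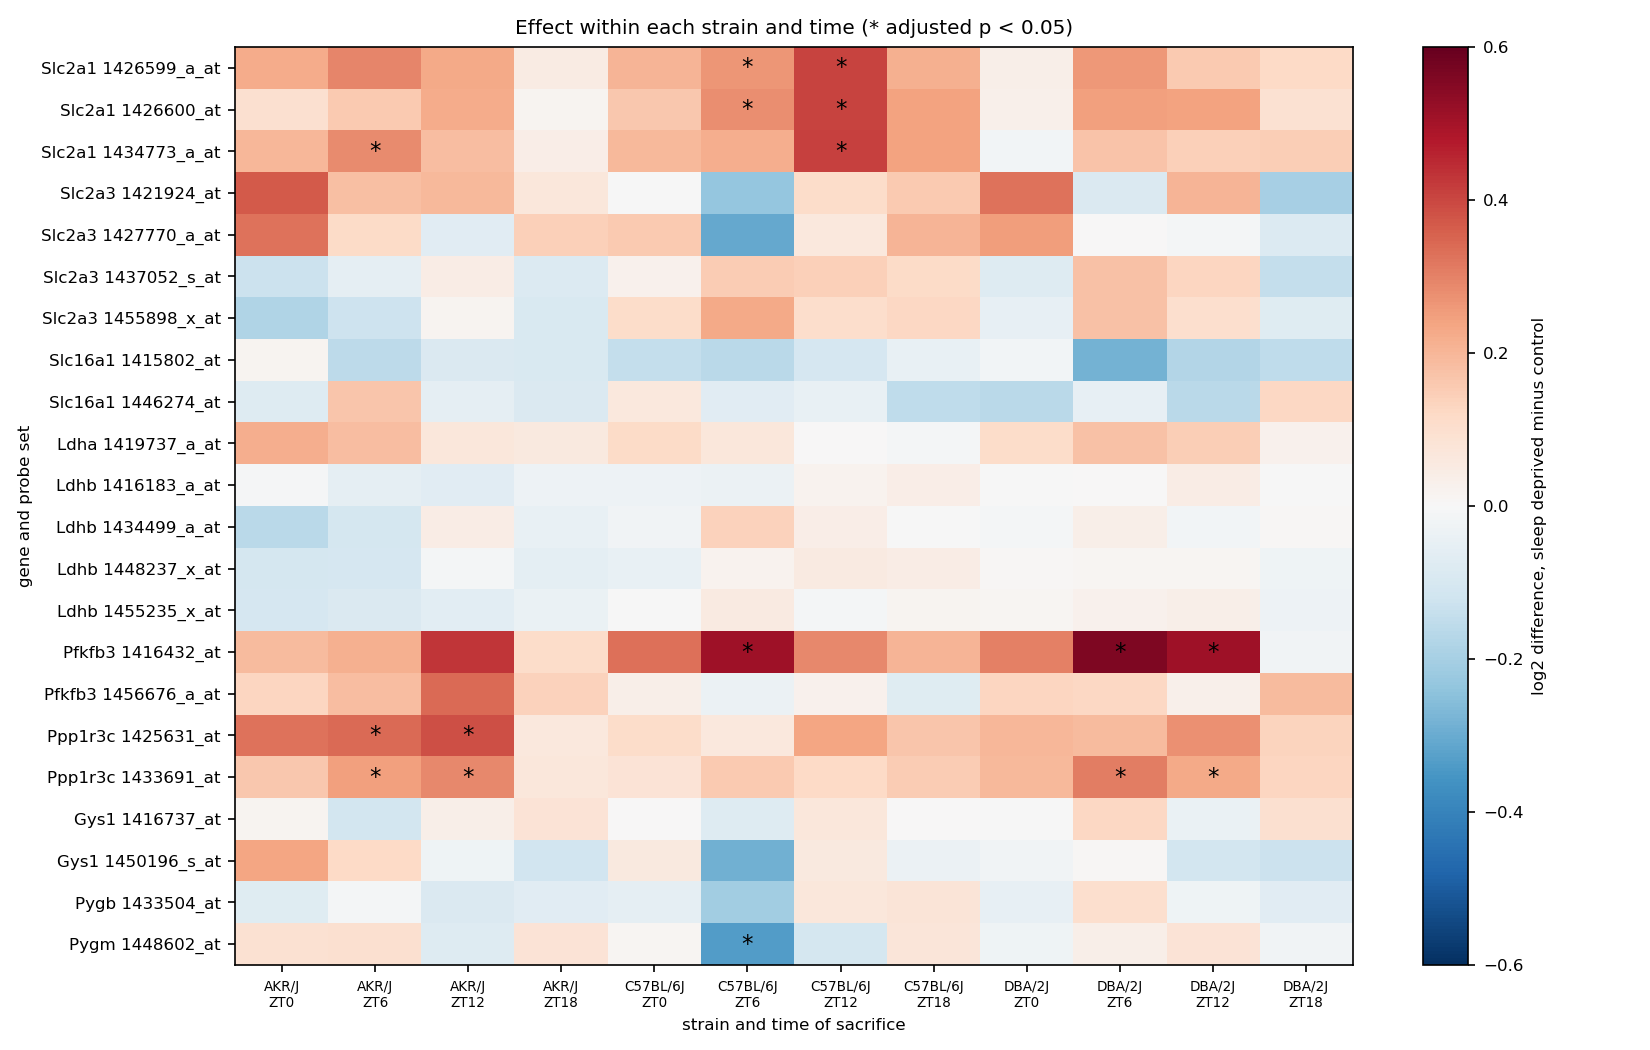
Difference in log2 signal between sleep-deprived and control arrays for the 22 probe sets (rows) in each strain and time (columns), from blue (lower) to red (higher), with asterisks on the calls. Slc2a1, Pfkfb3 1416432_at and Ppp1r3c are red in most columns and hold the 15 called rises, and the 1 called fall is Pygm in C57BL/6J at ZT6.

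Several members also followed the time of day in undisturbed mice. The F test over the 4 times in controls called 8 of the 22 probe sets (11.7% of all): the 3 of Slc2a1, both of Ppp1r3c, Slc16a1 1415802_at, Pfkfb3 1416432_at and Slc2a3 1427770_a_at. In sleep-deprived mice it called 4 (1.42% of all), the 3 of Slc2a1 and Ppp1r3c 1433691_at. Sleep-deprived mice at a given time and controls at that time differ in the 6 h before sacrifice, so these tests describe the daily course with and without enforced waking.

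Slc2a1 was highest at ZT12, when the light phase ends, in both conditions. On 1434773_a_at the control arrays, 9 at each time, had medians of 9.87 at ZT0, 9.88 at ZT6, 10.28 at ZT12 and 10.04 at ZT18. The ZT12 arrays, 10.17 to 10.39, did not overlap those of ZT0 (9.72 to 10.14) or ZT6 (9.7 to 9.93). The control means spanned 0.40 (F test adjusted p = 7.04e-11, limma). After sleep deprivation the medians were 9.98, 10.12, 10.5 and 10.2, and the means spanned 0.51 (adjusted p = 1.3e-12). The difference between ZT12 and ZT6 in controls was thus larger than the 0.18 change with sleep deprivation. Of 11 markers of endothelium, a cell type that expresses Slc2a1, 5 were called for time of day in controls. Cldn5, Kdr, Tek and Flt1 were all lowest at ZT12, where Slc2a1 was highest. Their highest means were at ZT0 for Cldn5 and Kdr, at ZT6 for Tek and at ZT18 for Flt1. Slco1a4 was highest at ZT12 and lowest at ZT18. The mean level of the 11 markers had a median of 6.84 at ZT12 and of 6.91 to 6.95 at the other times, and its part in the course of Slc2a1 was not tested.

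Ppp1r3c ran the other way. On 1433691_at control medians were 10.08 at ZT0, 9.91 at ZT6, 9.77 at ZT12 and 10 at ZT18, and the ZT12 arrays (9.71 to 9.89) did not overlap those of ZT0 (9.97 to 10.15). Control means spanned 0.29 (adjusted p = 2.06e-09, limma) and those of sleep-deprived mice 0.23 (adjusted p = 2.97e-05), the lowest at ZT12 in each. The probe set 1425631_at was also lowest in controls at ZT12, with means that spanned 0.24 (adjusted p = 0.000695), and had no call in sleep-deprived mice (0.14, adjusted p = 0.354).

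Pfkfb3 1416432_at was low in controls at ZT6 and ZT12 and high at ZT0 and ZT18, with medians of 6.05, 5.79, 5.82 and 6.12 in the order of the clock. Control means spanned 0.33 (adjusted p = 0.00344, limma). In sleep-deprived mice the medians were 6.22, 6.19, 6.24 and 6.19, and the means spanned 0.06 (adjusted p = 0.963). The difference in daily course is what the test of time by sleep deprivation above asks, and it was not called.

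Slc16a1 1415802_at was highest in controls at ZT6, with a median of 9.04 against 8.93 at ZT0, 8.81 at ZT12 and 8.73 at ZT18, and means that spanned 0.28 (adjusted p = 0.000535, limma). In sleep-deprived mice the span was 0.17 (adjusted p = 0.112). The Slc2a3 call on 1427770_a_at was marginal (0.26, adjusted p = 0.0467), and 38 single arrays each ended it, as did leaving out the 6 arrays that stood apart (adjusted p = 0.113). Ldha, Ldhb, Gys1, Pygb and Pygm had no call for time of day in either condition.

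**Figure D3:**
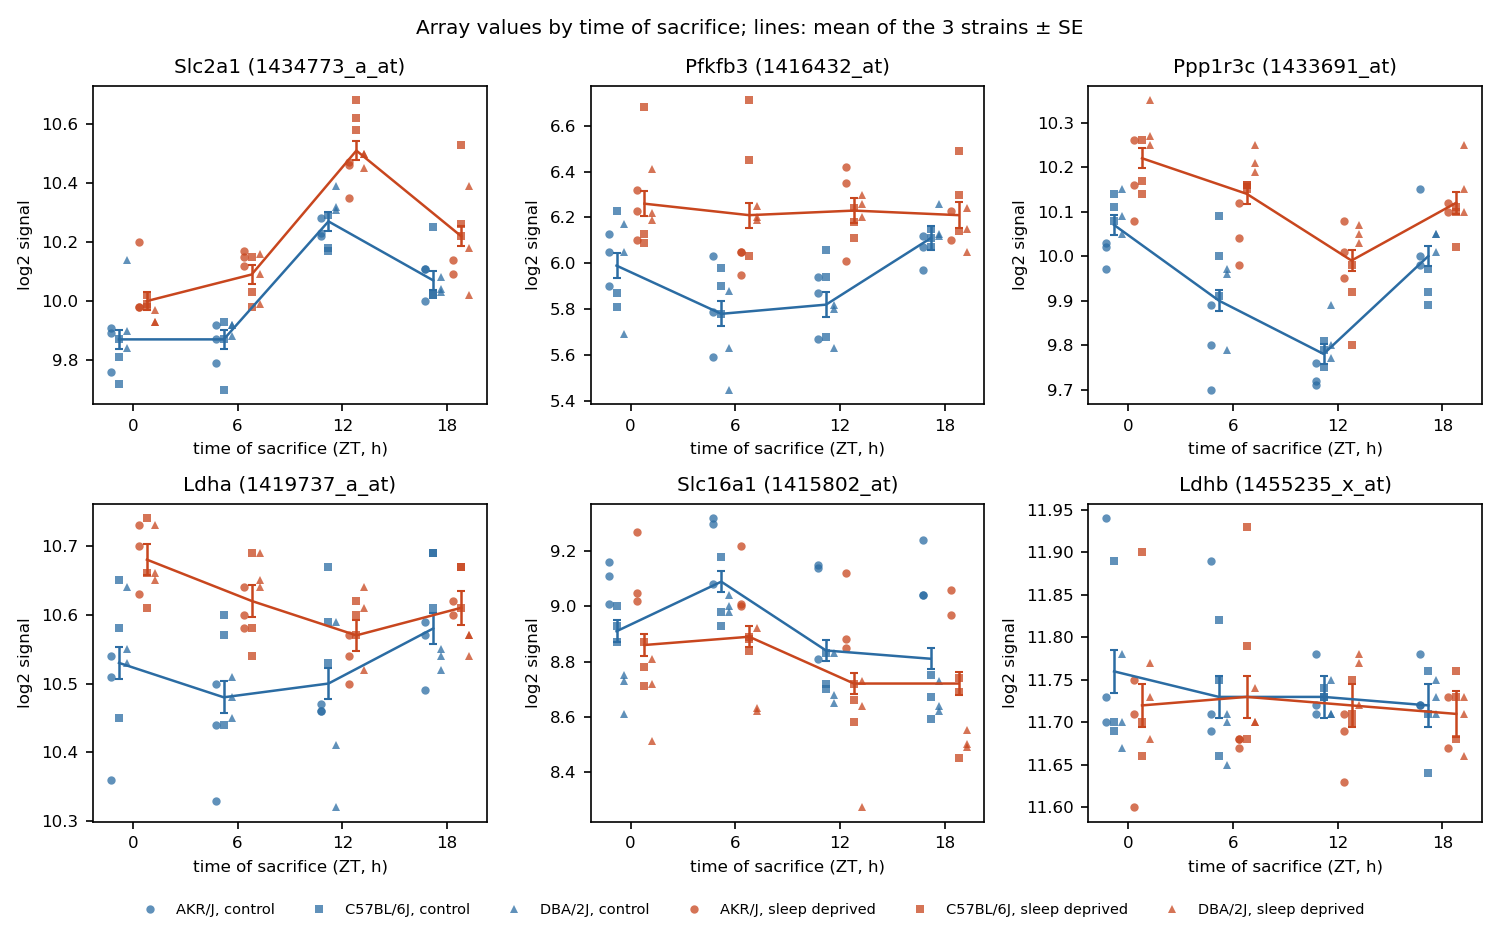
Log2 signal of every array by time of sacrifice for 6 probe sets; blue is control, orange sleep deprived, symbols give the strain, and lines join the means over the 3 strains with their SE. Slc2a1 peaks at ZT12 in both conditions, Ppp1r3c is lowest there, Pfkfb3 controls are lowest at ZT6 and ZT12 (time by sleep deprivation not called, adjusted p = 0.273), and Ldhb shows no separation.

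Between strains, undisturbed mice differed mainly in Slc16a1 and Pygm. C57BL/6J and AKR/J controls differed on 5 of the 22 probe sets (22.9% of all), DBA/2J and AKR/J on 3 (17.3%), and DBA/2J and C57BL/6J on 1 (23.2%), shares at or below those of all probe sets. For Slc16a1 1415802_at, the 12 AKR/J arrays ran from 8.81 to 9.32 (median 9.12), the C57BL/6J arrays from 8.59 to 9.18 (median 8.85) and the DBA/2J arrays from 8.61 to 9.04 (median 8.73). AKR/J was thus the highest strain, with overlap, and C57BL/6J was lower by -0.27 (SE 0.048, adjusted p = 8.61e-06, limma) and DBA/2J by -0.35 (SE 0.048, adjusted p = 4.32e-08).

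Pygm was lowest in AKR/J, at 7.37 to 7.72 (median 7.6), against 7.54 to 7.95 (median 7.82) in C57BL/6J and 7.68 to 7.91 (median 7.83) in DBA/2J. Both differences from AKR/J were 0.21 (SE 0.043 each; adjusted p = 8.54e-05 for C57BL/6J and 0.000115 for DBA/2J, limma). Ppp1r3c 1425631_at was higher than in AKR/J by 0.16 in C57BL/6J and 0.17 in DBA/2J (SE 0.044 each), while on 1433691_at the same differences were 0.060 and 0.073 with no call. The mean of both probe sets was called for each strain (0.11, adjusted p = 0.00303, and 0.12, adjusted p = 0.000984). Gys1 1416737_at was higher in C57BL/6J than in AKR/J by 0.14 (SE 0.036, adjusted p = 0.00216), and Ldha by 0.11 (SE 0.029, adjusted p = 0.00234). Ldha was lower in DBA/2J than in C57BL/6J by -0.082 (SE 0.029, adjusted p = 0.0307), a call that 10 single arrays each ended (adjusted p up to 0.0913 without DBA/2J control replicate 3 at ZT12). A sequence difference between strains under a probe can also shift its signal, and this was not tested.

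**Figure D4:**
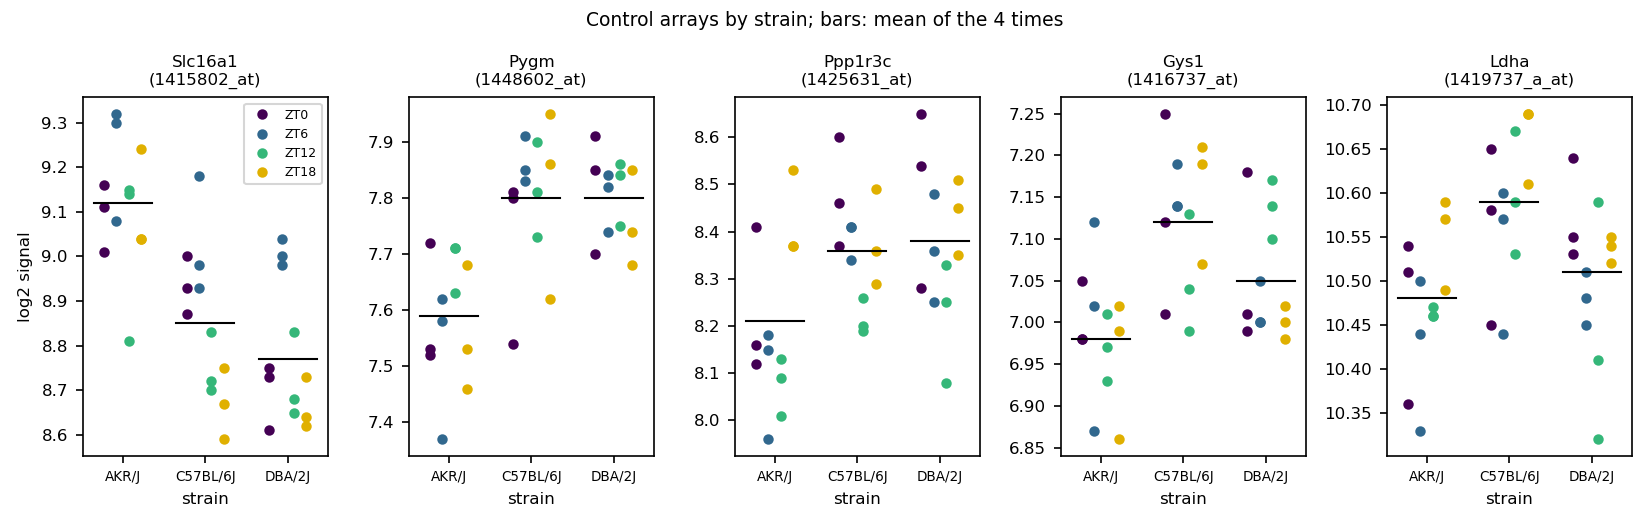
Log2 signal of the 36 control arrays by strain for 5 probe sets, coloured by time of sacrifice, with bars at the mean of the 4 times. Slc16a1 is highest in AKR/J, and Pygm, Ppp1r3c 1425631_at, Gys1 and Ldha have their lowest mean there.

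Of 67 neighbours of these genes in the pathway, 50 had no call, and the 7 called higher (10.4%) and 10 called lower (14.9%) were shares near those of all genes. Each was read on its probe set of highest mean, where the median over all 18193 genes was -0.005, with 9.95% of genes called higher and 12.2% lower. Of 15 other glucose and monocarboxylate transporter genes, 1 rose and 1 fell: Slc2a13, a myo-inositol transporter, by 0.061 (SE 0.020) and Slc2a8, an intracellular glucose transporter, by -0.12 (SE 0.019). Of 12 glycolytic enzymes, Pfkp, the platelet-type phosphofructokinase, rose by 0.068 (SE 0.014) and the rest had no call, with differences of -0.0519 (Pfkm) to 0.022 (Pgam1). Of 3 other genes that set fructose 2,6-bisphosphate, Tigar, a phosphatase that removes it, rose by 0.082 (SE 0.023), Pfkfb2, which makes it, fell by 0.094 (SE 0.024).

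Of 24 other glycogen genes, 2 rose and 5 fell. Ppp1r3g, another glycogen-targeting subunit of protein phosphatase 1, rose by 0.15 (SE 0.030, adjusted p = 0.000113, limma) and Phka1, a regulatory subunit of phosphorylase kinase, by 0.096 (SE 0.023). Phka2, its liver-type counterpart, fell by 0.18 (SE 0.024, adjusted p = 2.26e-08) and Epm2a, the glycogen phosphatase laforin, by 0.18 (SE 0.034). The other falls, outside the naming rule of 4 genes per list and named after their values were seen, were those of Pgm2 (-0.10), the branching enzyme gene Gbe1 (-0.095) and the liver phosphorylase gene Pygl (-0.12). Among 13 genes of pyruvate entry into mitochondria 2 rose and 3 fell: Pdp1, the phosphatase that activates pyruvate dehydrogenase, rose by 0.29 (SE 0.028, adjusted p = 2.4e-12) and Pdk4, a kinase that inactivates it, by 0.20 (SE 0.037), while the carrier gene Mpc1 (-0.063), the subunit gene Dlat (-0.055) and, also named after its value was seen, Pdha1 (-0.040) fell. For Pdp1 and Pdk4 the F test of time by sleep deprivation was also called (adjusted p = 0.00367 and 0.019, limma). Their values here are averages of effects that differed between times. The list medians were 0 for transporters, 0.01 for glycolytic enzymes, -0.03 for the fructose 2,6-bisphosphate genes, -0.01 for glycogen genes and -0.04 for pyruvate entry.

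**Figure D5:**
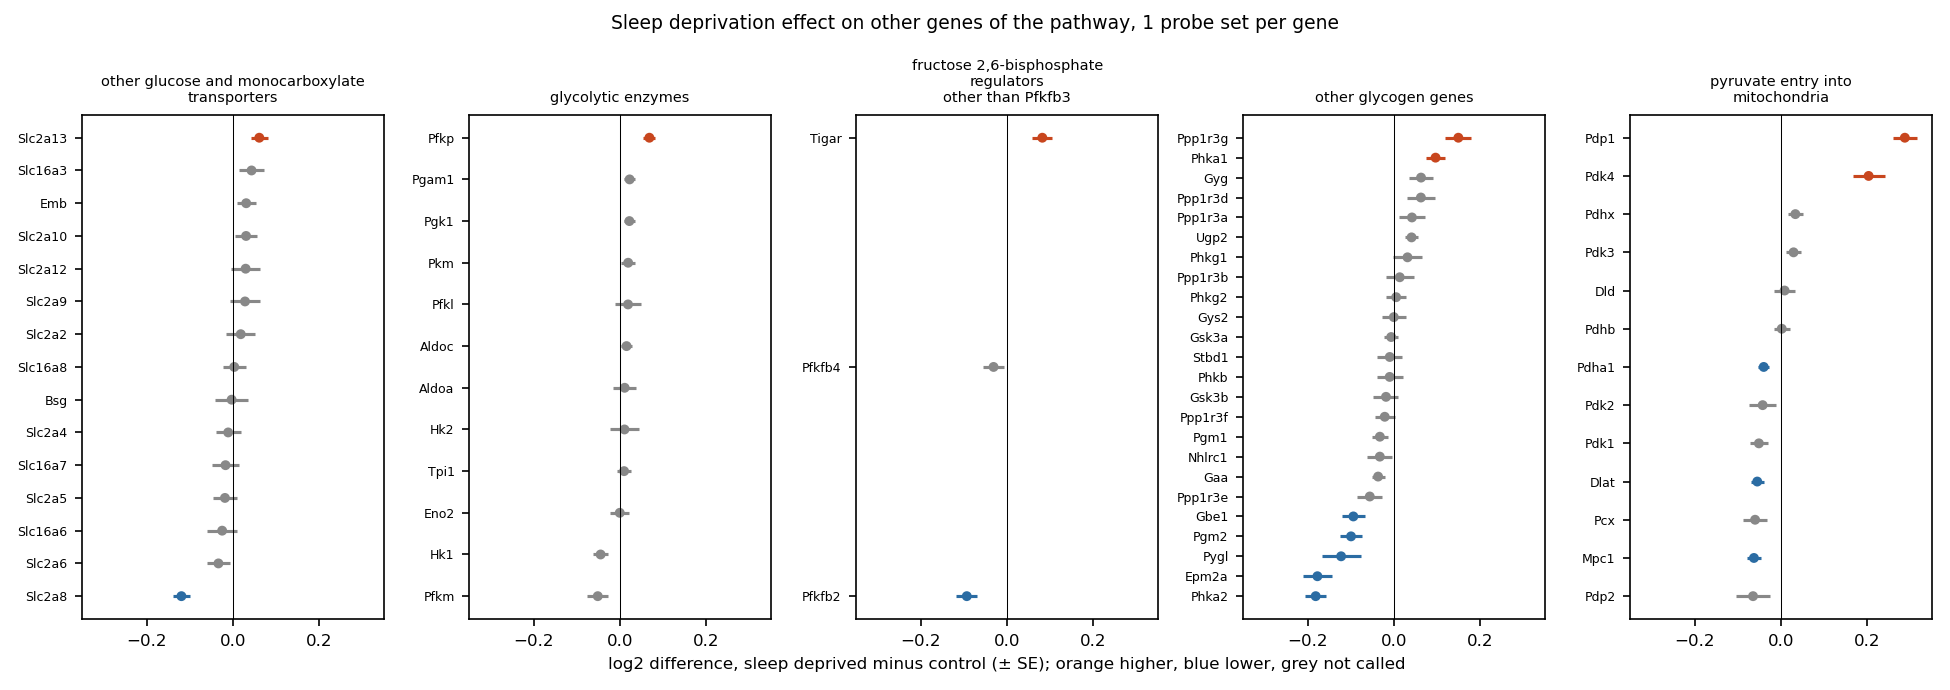
Difference in log2 signal between sleep-deprived and control arrays with its SE for each measured gene of the 5 further lists, orange called higher, blue called lower and grey not called. Pdp1, Pdk4 and Ppp1r3g reach the highest values and Phka2 and Epm2a the lowest, and the glycolytic enzymes other than Pfkp are grey near 0.

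Markers of the cell types that hold these genes were read beside them, and their part in the differences was not tested. Of 10 astrocyte markers, Gjb6 rose by 0.28 and Sox9 fell by 0.11, and their mean level per array was 9.72 to 9.92 in controls and 9.73 to 9.93 after sleep deprivation. Of 11 endothelial markers 1 rose and 3 fell, with a mean level of 6.78 to 7.07 and 6.77 to 7.06. Of 8 oligodendrocyte markers, Ermn rose by 0.078 and 4 fell, Opalin by 0.59, Mog by 0.12, Mag by 0.099 and Cnp by 0.071, while Mbp and Mobp had no call, and the mean level, which holds the large change of Opalin, was 10.32 to 10.8 in controls and 10.23 to 10.63 after sleep deprivation. The values of Gjb6, Opalin and Mag average over times whose effects differed (F test of time by sleep deprivation, adjusted p = 0.0047, 1.41e-09 and 0.027, limma). Neuronal markers (9) had 1 rise and 1 fall, microglial markers (8) 2 rises and 1 fall, and choroid plexus markers (5) 1 rise. Blood markers (3), pituitary markers (5) and skeletal muscle markers (7), the last a source of Pygm, had no call, and the muscle list read 4.79 to 5.03 in controls and 4.79 to 5.63 after sleep deprivation. The pituitary list differed widely between pools, from 5.2 to 10.81 in controls and from 5.21 to 10.47 after sleep deprivation. The neuronal list averaged 11.34 to 11.66 per control array and the oligodendrocyte list as above. These levels are a description, because no other tissue was measured for comparison.

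The genes whose 24 group means followed each member most closely, after the mean of each strain was subtracted, were found among 19619 probe sets. For Slc2a1 they were Klf15 (Pearson r = 0.972), Sgk1 (0.964) and Nfkbia (0.948), for Pfkfb3 Kalrn (0.947), Sgsm1 (0.941) and Hnrnph1 (0.94), and for Ppp1r3c Hnrnpc (0.946), Tardbp (0.931) and Nfil3 (0.93). Slc16a1 was closest to Lpcat3 (0.909), Aldh1a2 (0.902) and Grm3 (0.9), and Ldha to Snx3 (0.908), Prmt2 (0.901) and Rpn1 (0.889). The best partner of Slc2a3 1437052_s_at reached 0.949 (Ddx17), of Pygm 0.896 (Clstn1), of Pygb 0.885 (Dgcr2), of Ldhb 0.834 (Slc25a23) and of Gys1 0.679 (Ppib). These values describe 24 means from the same arrays, picked as the highest of many, and carry no test. The means include the 6 arrays that stood apart. On Slc2a3 1437052_s_at those arrays read 10.97 to 11.07 and every other array 10.82 or less, and their part in the correlations was not tested.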

How the data were processed

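Whole-brain RNA of 71 pools of 3 mice was measured on one-colour Affymetrix arrays. The authors deposited 1 table of log2 expression values for all arrays; per the submitters' processing notes it was made with RMA, whose version is not given in the sources used here. No depth applies to arrays, and their number limits the precision.

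Of 45101 probe sets, 64 array controls were left out. Genes were named from the platform annotation: 34945 probe sets have 1 symbol, 932 several and 9160 none, and 34741 of the first were found by Entrez ID in the RefSeq gene list. With limma, a mean was fitted for every one of 24 groups (all arrays, 45037 probe sets; limma 3.58.1, R 4.3.3, 47 residual degrees of freedom), and p-values were adjusted by Benjamini-Hochberg over all probe sets, with calls at 0.05. The effect of sleep deprivation over all groups is the average of the 12 strain and time differences. Figures and summaries used Python 3.11.15, pandas 2.3.3 and matplotlib 3.10.9. The fit was tested before use on simulated data with these groups and independent noise. In it 50 probe sets were changed by each of 0.1, 0.2, 0.3 and 0.5 log2 units. Sleep deprivation over all groups was called for 50% of those changed by 0.1 and 98% of those changed by 0.2. Unchanged probe sets made up 5.95% of all calls (45037 probe sets). In the data 3743 probe sets were called higher and 4052 lower, far more than were changed in the simulation, so these shares need not carry over.

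Every member probe set is named or counted; of each other pathway list the up to 4 called genes of smallest p are named, and for each member the 3 genes of most similar group means. The lists were other glucose and monocarboxylate transporters, glycolytic enzymes, fructose 2,6-bisphosphate regulators, other glycogen genes, pyruvate entry, and markers of neurons, astrocytes, oligodendrocytes, microglia, endothelium, skeletal muscle, blood, choroid plexus and pituitary. Members and lists were chosen with earlier results of these data known. Gpi1, Gapdh, Eno1, Pfkfb1 and Mpc2 were not analysed here. Alternatives covered normalization, a level filter, variance settings, array weights, blocks, gene means and left-out arrays; the split on control probe sets was chosen after seeing the data.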

Additional observations from a re-analysis of the deposited data

How the results depend on the processing

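The overall rises of Slc2a1, Pfkfb3 1416432_at, Ppp1r3c and Ldha and the fall of Slc16a1 1415802_at kept their direction and call under each alternative that gave a value, and no call changed sign. With any 1 array left out, 7 to 9 probe sets were called higher overall and 1 lower. Counts near the threshold moved more. Calls higher at ZT0 (5) were 3 after quantile normalization, 2 without 22 arrays that formed a cluster on 18 spike-in probe sets, 0 with only the arrays of the compared groups, and 2 to 6 with 1 array left out. The call lower at ZT6 (1) was 0 without that cluster and 0 without the 6 arrays, and that in DBA/2J (1) was 0 without the cluster, 0 with only the compared groups and 0 to 1 with 1 array left out. In C57BL/6J, where none was called lower, array weights called 1, and time by sleep deprivation (0) had 2 with array weights. The calls higher within strain and time (15) were 24 above the median level, 24 with array weights, 5 with only the compared groups, 13 without the 6 arrays and 12 to 17 with 1 array left out; those lower (1) were 2 after quantile normalization, 2 above the median level, 5 with array weights, 0 with only the compared groups, 0 without the 6 arrays and 0 to 2 with 1 array left out. The difference between DBA/2J and C57BL/6J controls (1) was 0 after quantile normalization and 0 to 1 with 1 array left out. The cause of these changes was not tested, except that comparing fewer arrays leaves fewer degrees of freedom. Leaving out the spike-in cluster removed all C57BL/6J controls at ZT12 and gave no value for the tests over all groups, in C57BL/6J, at ZT12 or of interactions.

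Averaging the probe sets of a gene ended 8 single calls: those of Slc16a1 at ZT6 (-0.091, adjusted p = 0.131, limma) and for time of day in controls (0.251), of Pfkfb3 in DBA/2J at ZT12 (0.27, 0.0867) and in C57BL/6J at ZT6 (0.24, 0.0948), and of Slc2a3 over all groups (0.118), in AKR/J (0.613), at ZT0 (0.34) and for time of day in controls (0.313). Leaving out the spike-in cluster ended 18, among them Ldha in AKR/J, in DBA/2J and at ZT0 (0.0827) and Slc2a1 1434773_a_at in AKR/J (0.0782), and fitting only the compared groups ended 19. Replicate numbers did not pair the arrays over the series: of 35 pairs with the same number in control and sleep-deprived mice, 6 had a correlation of deviations over 0.1. These 6 include all 3 pairs of C57BL/6J at ZT0 (0.37, 0.23 and 0.6), the last of which holds 2 of the arrays that stood apart. With the replicate block 8 probe sets were called higher over all groups, 4 at ZT0, 7 for time of day in controls and 6 between C57BL/6J and AKR/J controls. It ended 3 single calls, those of Slc2a3 1421924_at overall (0.0501) and at ZT0 (0.0518) and of 1427770_a_at for time of day (0.0531).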
